A study of Mus musculus with 2 samples.

Results

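Planar cell polarity genes were followed in single cells of gastruloids, clumps of mouse embryonic stem cells that begin to lay out a body axis in culture. The 10 genes were Celsr1, Celsr2, Vangl1, Vangl2, Prickle1, Prickle2, Dvl1, Dvl2, Ptk7 and Scrib, chosen by symbol among the 32285 genes counted, and each symbol matched 1 gene. The rule reads symbols and no expression value, but the genes were chosen with earlier results of these data known. Both libraries came from R1 cells, a mouse embryonic stem cell line, aggregated at about 300 cells in serum-free N2B27 medium and given CHIR, a GSK3 inhibitor that switches on Wnt signalling, at 3 µM for 12 hours from day 2 to day 2.5. One library was labelled wild type and the other Sp5/8 double knockout. Aggregates were pooled within a genotype, and each genotype had 1 library, so there was no replicate and no test. The labels name 2 sequencing runs without saying which library was in which, so a difference between runs cannot be told apart from one between the libraries. The labels do not say how many clones the double knockout line stands for.

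Planar cell polarity is the alignment of cells within the plane of a tissue. A Frizzled receptor with Dishevelled gathers on one side of a cell and Vangl with Prickle on the opposite side, and the atypical cadherin Celsr joins the complexes of neighbouring cells. In the gastrulating mouse embryo the pathway is known for convergent extension, the movement that narrows and lengthens the body axis, and for neural tube closure.

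Cells were barcodes with at least 2500 UMIs, at least 1000 genes and at most 10% mitochondrial UMIs, a UMI being a tag on each captured molecule that keeps its amplified copies from being counted again. In the library labelled wild type 8707 cells passed, with 97157331 UMIs. In the one labelled double knockout 10587 cells passed, with 97644169 UMIs. The median cell held 10571 and 8637 UMIs, and 27 cell barcodes were found in both libraries. Where 2 values stand together without further words, the first is from the library labelled wild type and the second from the library labelled double knockout. Levels are CPM, the UMIs of a gene per 1000000 UMIs summed over the cells named, and intervals are 95% intervals that cover counting error only, not the variation between cultures.

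The targeted genes went against the labels. Sp5 stood at 109.1 and 478.7 CPM, so the library labelled double knockout held more of it, at a log2 ratio of 2.13 (2.10 to 2.16). Sp8 stood at 20.8 and 40.1 CPM, a log2 ratio of 0.95 (0.87 to 1.03). Counts per gene from 3′ reads cannot separate edited from intact transcripts. Whether the labels of the 2 libraries were exchanged was not tested either, and an exchange would turn every direction given between them. No direction here stands for loss of Sp5 or Sp8.

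Prickle1 and Vangl1, which act together on the same side of the cell, were higher in the library labelled double knockout, and Ptk7 was lower there. Prickle1 was 1.68 times and Vangl1 1.49 times as high, while Ptk7 was 0.700 times as high. Their paralogs Prickle2 and Vangl2 did not pass the same limit. A gene counted as higher or lower here when its ratio reached 1.2-fold and its interval excluded 1. By that rule 2 of 10 members were higher, against 4.62% of the 12406 genes whose CPM averaged 1 or more, and 1 of 10 was lower, against 7.14% of them. With TMM scaling the members' counts were the same, and the shares of all genes were 5.87% higher and 5.44% lower. The median log2 ratio was 0.01 over the members and -0.03 over all of those genes, whose SD was 0.20.

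Prickle1 codes for a cytoplasmic LIM domain protein that binds Vangl. It had 1323 UMIs under the wild type label, or 13.6 CPM (12.9 to 14.4), and 2232 UMIs under the double knockout label, or 22.9 CPM (21.9 to 23.8). The intervals lie well apart, and the log2 ratio was 0.75 (0.65 to 0.85). Among the 7607 genes whose mean CPM reached 10 this was the 10th highest ratio. With the cells that carry T, Eomes and Irx3 UMIs weighted to equal shares in both libraries, the log2 ratio was 0.58 (0.48 to 0.68). Prickle2, its paralog, stood at 2.07 CPM (1.79 to 2.38) and 1.74 CPM (1.49 to 2.02). Its log2 ratio of -0.25 (-0.55 to 0.05) left a difference undetectable at this depth.

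Vangl1 and Vangl2 code for membrane proteins that recruit Prickle. Vangl1 had 8.44 CPM (7.87 to 9.04) and 12.6 CPM (11.9 to 13.3), more in the library labelled double knockout, at a log2 ratio of 0.57 (0.44 to 0.70) and the 23rd highest of the 7607. Vangl2 stood at 47.7 CPM (46.4 to 49.1) and 42.2 CPM (40.9 to 43.5). Its log2 ratio of -0.18 (-0.24 to -0.12) excluded no change but stayed under the 1.2-fold limit. The values of this pair of paralogs thus lay on opposite sides of no change. An antisense gene, Gm16160, overlaps Vangl1 and is among the counted genes. Whether counting used the strand is not given in the sources used here.

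Ptk7 codes for a receptor-like protein with an inactive kinase domain that takes part in polarity and Wnt signalling. It had 109.1 CPM (107.1 to 111.2) and 76.4 CPM (74.7 to 78.2). The log2 ratio was -0.51 (-0.56 to -0.47), the 31st lowest of the 7607. Its level was thus lower in the library labelled double knockout, opposite to Prickle1 and Vangl1.

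The libraries also differed in markers of cell states, which were summed per list. The 9 primitive streak markers summed to 304.2 and 498.0 CPM, the 7 early neural markers to 96.4 and 51.0 CPM, the 4 stress markers to 37.0 and 53.3 CPM, and the 5 primed epiblast markers to 1556 and 1672 CPM. Naive pluripotent markers (36.6 and 37.0 CPM) and extraembryonic endoderm markers (10.3 and 9.37 CPM) summed to low levels in both. The 6 caudal markers summed to 30.6 and 25.4 CPM, lower in the library where the streak markers were higher, and to 35.1 and 24.9 CPM in T positive cells. The part of these states in the member differences was not tested, apart from the equal class shares above, under which Vangl1 stood at 0.47 (0.34 to 0.60) and Ptk7 at -0.48 (-0.52 to -0.43).

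The other 5 members stayed under the 1.2-fold limit. The atypical cadherins were at 7.45 and 6.63 CPM for Celsr1, with a log2 ratio of -0.17 (-0.32 to -0.01), and at 14.4 and 15.6 CPM for Celsr2, with 0.11 (0.01 to 0.22). Both intervals narrowly excluded no change, in opposite directions. The Dishevelled genes, which carry the Frizzled signal into the cell, were at 9.17 and 9.83 CPM for Dvl1, with a log2 ratio of 0.10 (-0.03 to 0.23), and at 42.7 and 42.1 CPM for Dvl2, with -0.02 (-0.08 to 0.04). Antisense genes among those counted overlap both, Tas1r3 for Dvl1 and Acadvl for Dvl2. Scrib, a scaffold protein of the basolateral membrane that binds Vangl, was at 25.8 and 26.6 CPM, with 0.04 (-0.04 to 0.12). For Dvl2 and Scrib the counting intervals leave room only for small differences between these 2 libraries, and they do not cover the variation between cultures.

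**Figure D1:**
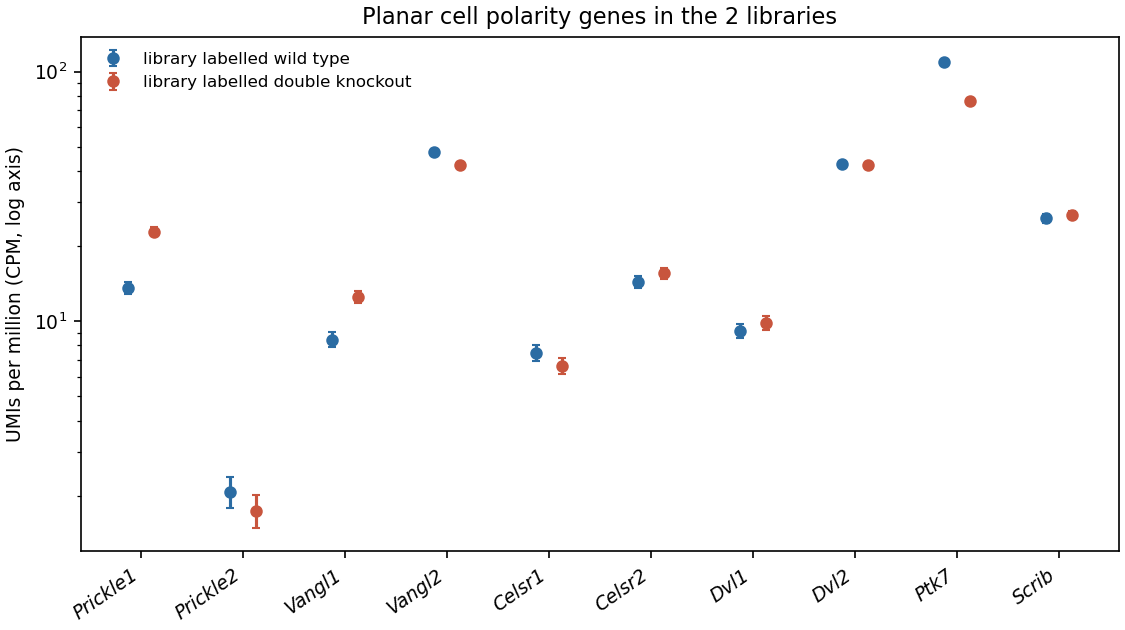
Level of each member (CPM, log axis) in the library labelled wild type (blue) and the library labelled double knockout (red), with 95% counting intervals as bars. Prickle1 and Vangl1 sit higher and Ptk7 lower in the library labelled double knockout, and the points of Dvl2 and Scrib nearly coincide.

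**Figure D2:**
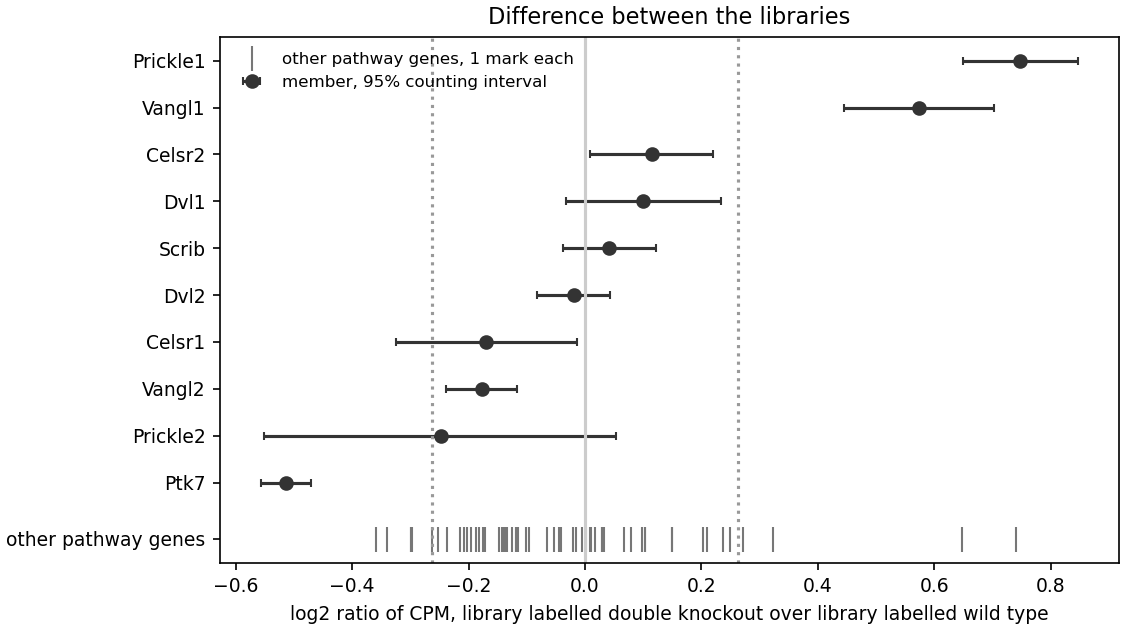
Log2 ratio of CPM between the libraries for each member, with 95% counting intervals, and for 58 other genes of the pathway as marks in the lowest line. Dotted lines are the 1.2-fold limits, and only Prickle1, Vangl1 and Ptk7 lie beyond them among the members with an interval that excludes 0.

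The share of cells with a UMI was compared after thinning every cell to 2500 UMIs, since the libraries differ in depth per cell. Prickle1 was found in 2.91% (2.56 to 3.28) and 5.22% (4.81 to 5.66) of thinned cells, and in 13.2% and 17.3% without thinning. Ptk7 was found in 23.3% (22.4 to 24.2) and 17.1% (16.3 to 17.8) of thinned cells, and in 65.6% and 48.2% without. Vangl1 was found in 1.88% (1.61 to 2.19) and 2.75% (2.45 to 3.08). All 3 thinned shares differ in the same direction as the CPM. No cell type known to lack these genes was available as a background. In barcodes of 10 to 100 UMIs, taken as free RNA, Prickle1 stood at 10.6 and 14.6 CPM and Ptk7 at 83.1 and 54.7 CPM.

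Sp5 and Sp8 belong to a family that binds the GC box, so the start regions of the members were read from RefSeq's table on GRCm38.p6, the assembly behind mm10. The table held 11 windows of 300 bases for 7 of the 10 members and none for Vangl1, Celsr1 and Scrib. The letters GGGCGG, on either strand, were in 9 of the 11 windows and in 35.7% of all 32851 windows in the table. Those 9 belong to Prickle1, Prickle2, Vangl2, Dvl1, Dvl2 and Ptk7, and Prickle1 and Prickle2 each have more than 1 window. The GC content of the windows was not compared, so these shares are not read as an enrichment. The T-box letters AGGTGT were in 1, that of Vangl2, and in 13.7% of all. The TCF/LEF letters CTTTGA were in 1, a Prickle2 window, and in 16.0% of all. The 250 bases before the start are printed for Prickle1, which has 2 starts in the table, and for Ptk7, because these are the members that differed most in each direction and have an entry. Capitals mark GGGCGG or its reverse complement.
Prickle1, first start, chr15:93595903-93596152, minus strand: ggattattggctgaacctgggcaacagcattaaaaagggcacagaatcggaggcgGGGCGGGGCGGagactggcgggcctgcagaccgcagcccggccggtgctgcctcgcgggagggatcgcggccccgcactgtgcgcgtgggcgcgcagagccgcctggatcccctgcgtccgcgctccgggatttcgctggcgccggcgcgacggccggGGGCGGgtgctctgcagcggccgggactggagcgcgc
Prickle1, second start, chr15:93519521-93519770, minus strand: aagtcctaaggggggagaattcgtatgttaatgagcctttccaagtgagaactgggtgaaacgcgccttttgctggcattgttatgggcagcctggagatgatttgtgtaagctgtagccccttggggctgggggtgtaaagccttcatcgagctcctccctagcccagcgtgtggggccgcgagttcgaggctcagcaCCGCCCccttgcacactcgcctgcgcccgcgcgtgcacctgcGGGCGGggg
Ptk7, chr17:46629505-46629754, minus strand: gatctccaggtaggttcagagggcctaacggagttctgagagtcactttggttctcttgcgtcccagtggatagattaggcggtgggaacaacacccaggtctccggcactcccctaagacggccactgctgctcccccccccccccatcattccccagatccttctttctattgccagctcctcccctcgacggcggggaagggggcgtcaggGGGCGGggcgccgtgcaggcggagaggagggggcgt

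The first Prickle1 window holds 3 matches, a pair of them overlapping, the second Prickle1 window holds 2, and the Ptk7 window holds 1. Dvl1 holds 5 and Dvl2 holds 4, and neither passed the limit between the libraries. The window of Celsr2 and 1 of the 4 Prickle2 windows hold none. Prickle1 (ENSMUSG00000036158) spans 93499114 to 93595891 on the minus strand of chromosome 15, so the second start lies inside the gene, and Ptk7 (ENSMUSG00000023972) spans 46564471 to 46629504 on the minus strand of chromosome 17, both in GENCODE M21 on GRCm38. A match of letters is a description and not a binding site.

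Cells were then divided by T, a gene of the primitive streak, by Eomes, a T-box gene needed to form mesoderm and endoderm, and by Irx3, a homeobox gene found in early neural cells. A cell was positive with at least 1 UMI. T positive cells numbered 2267 (26.0%) and 3100 (29.3%), and Eomes positive cells 3780 (43.4%) and 6547 (61.8%). Irx3 positive cells numbered 1346 (15.5%) and 657 (6.21%). After thinning to equal depth, the shares were 7.97% and 10.3% for T, 16.7% and 31.3% for Eomes, and 4.54% and 1.98% for Irx3. The shares thus depend on depth, and cells counted as negative can include cells whose transcripts of that gene were not captured. All 9 primitive streak markers were higher in T positive and in Eomes positive cells of both libraries, with summed levels of 540.7 and 767.7 CPM in T positive against 203.7 and 363.7 CPM in T negative cells. The list and its sums include T and Eomes themselves, and the gene that defines positive cells has no UMI in negative cells by definition. Of 7 early neural markers 6 were higher in Irx3 positive cells of both libraries, with sums of 259.7 and 212.7 against 63.1 and 39.2 CPM. This list includes Irx3 itself, so its place in the count and its part of the sums were fixed by how the cells were divided. Of 4 stress markers 3 were higher in T positive and in Eomes positive cells of both libraries, with sums of 44.6 and 59.4 CPM in T positive against 33.8 and 50.2 CPM in T negative cells, and their part in the values below was not tested.

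Prickle1 and Vangl1 were higher in T positive and in Eomes positive cells of both libraries, and Prickle1 was lower in Irx3 positive cells of both. The other 8 members were not past 1.2-fold in both libraries for any of the 3 genes. In T positive cells 2 of 10 members were higher, against 1.02% of all genes, and 0 were lower, against 1.61%. In Eomes positive cells the same 2 were higher, against 1.65%, and 0 lower, against 2.72%. In Irx3 positive cells 0 were higher, against 1.65%, and 1 was lower, against 1.17%. A gene had to pass the fold with an interval excluding 1 in the same direction in both libraries for these counts.

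In the library labelled wild type Prickle1 stood at 17.9 CPM in T positive and 11.8 CPM in T negative cells, a log2 ratio of 0.61 (0.44 to 0.77). In the library labelled double knockout these were 30.3 and 19.1 CPM, a log2 ratio of 0.66 (0.54 to 0.79). Prickle1 was thus higher in T positive cells of both libraries. Between Eomes positive and negative cells it stood at 17.7 against 9.79 CPM, a log2 ratio of 0.85 (0.69 to 1.02), and at 26.3 against 15.9 CPM, a log2 ratio of 0.72 (0.58 to 0.87). Between Irx3 positive and negative cells it stood at 8.99 against 14.6 CPM, a log2 ratio of -0.69 (-0.95 to -0.45), and at 14.5 against 23.5 CPM, a log2 ratio of -0.68 (-1.002 to -0.397). Irx3 positive cells held less Prickle1 in each library.

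Vangl1 followed with smaller differences. For T it stood at 10.9 against 7.38 CPM, a log2 ratio of 0.57 (0.36 to 0.77), and its log2 ratio in the library labelled double knockout was 0.49 (0.32 to 0.65). For Eomes the log2 ratios were 0.52 (0.32 to 0.73) and 0.42 (0.24 to 0.61). For Irx3 they were -0.52 (-0.84 to -0.22) and -0.27 (-0.66 to 0.07), so only the library labelled wild type passed the limit. In cells positive for T alone, against cells with none of the 3 genes, the Vangl1 log2 ratios were 0.06 (-0.38 to 0.46) and 0.50 (0.09 to 0.87), the first with an interval that held no change. The same comparison for Eomes alone gave 0.19 (-0.09 to 0.47) and 0.30 (0.07 to 0.54), so Vangl1 no longer passed in both libraries for either gene.

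Values of Ptk7 lay on the opposite side of no change and under the limit. Its log2 ratio was -0.11 (-0.17 to -0.04) and -0.08 (-0.15 to -0.01) for T, -0.15 (-0.20 to -0.09) and -0.12 (-0.19 to -0.05) for Eomes, and 0.13 (0.06 to 0.20) and 0.16 (0.04 to 0.29) for Irx3. All 6 intervals excluded no change. In cells thinned to 2500 UMIs the T value in the library labelled wild type was 0.13 (-0.09 to 0.33). Celsr2 stood at -0.18 (-0.34 to -0.03) and -0.19 (-0.34 to -0.03) for Eomes, under the limit, and for Irx3 at 0.16 (-0.04 to 0.36) and 0.44 (0.17 to 0.69), past it in the second only. For Dvl2 all 6 intervals for the 3 genes held no change.

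Positive cells were deeper, with medians of 11773 and 9771 UMIs for T positive against 10129 and 8251 for T negative cells. With cells compared within 5 depth strata, the Prickle1 log2 ratios were 0.55 and 0.60 for T, 0.80 and 0.66 for Eomes, and -0.93 and -0.80 for Irx3. After thinning, the T interval of Prickle1 held no change in the library labelled wild type, at 0.57 (-0.06 to 1.11). That of Vangl1 held no change in both libraries, so 0 members passed as higher for T, against 0.355% of all genes. Celsr2 passed as lower for T after thinning, the only 1 of the members to do so, against 0.266% of all genes. That call rests on few UMIs, 14 and 22 in the thinned cells with 1 T UMI. Without thinning, its T log2 ratios were -0.06 (-0.23 to 0.11) and -0.08 (-0.24 to 0.08), and both intervals held no change. For Eomes, Prickle1 passed after thinning, at 0.82 (0.39 to 1.22) and 0.44 (0.19 to 0.69), and Vangl1 did not.

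**Figure D3:**
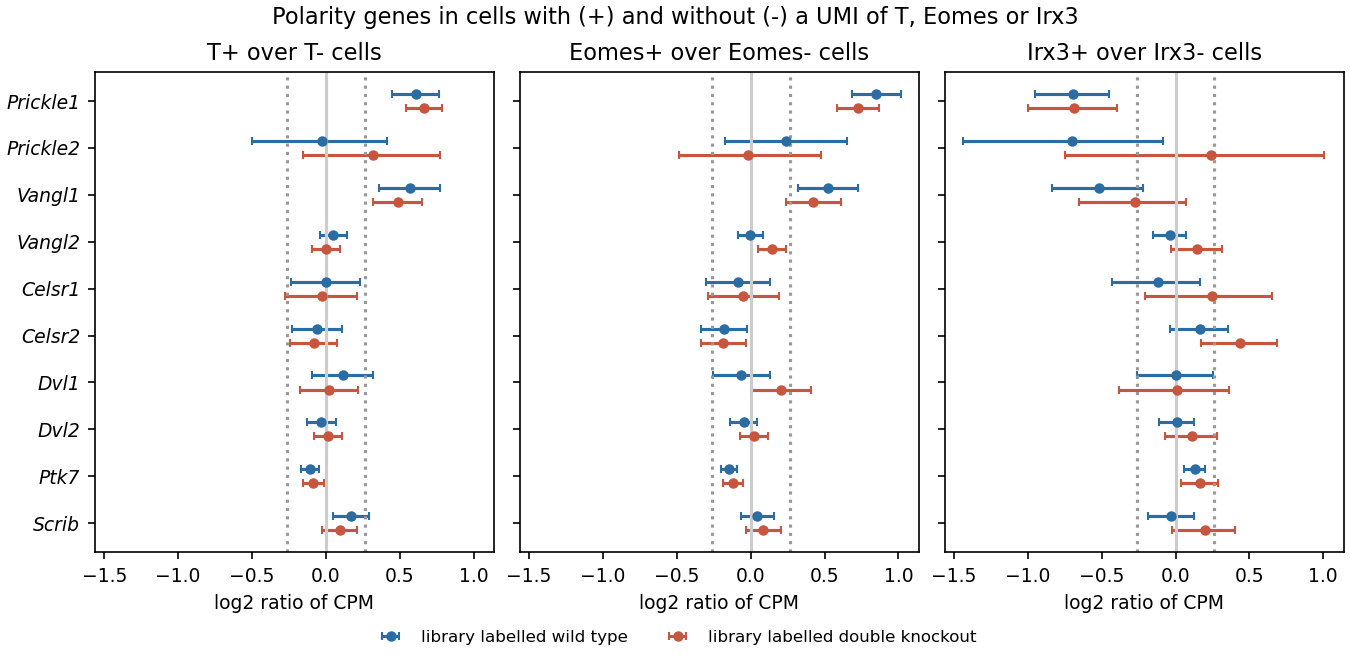
Log2 ratio of CPM in cells with a UMI of T, Eomes or Irx3 (+) over cells without (-) for each member, in the library labelled wild type (blue) and the library labelled double knockout (red), with 95% counting intervals and dotted 1.2-fold limits. Prickle1 lies right of the limit for T and Eomes and left of it for Irx3 in both libraries, while the points of Vangl2, Dvl2 and Ptk7 lie within the limits.

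The 3 genes together split the cells into 8 classes, of which 7 held at least 50 cells in both libraries. Prickle1 was lowest in cells with Irx3 alone, at 4.74 CPM (3.43 to 6.39) and 7.38 CPM (4.51 to 11.4). In cells with none of the 3 genes it stood at 10.0 CPM (8.97 to 11.2) and 15.3 CPM (13.8 to 16.9). It was highest in cells with T and Eomes, at 20.1 CPM (18.0 to 22.3) and 32.4 CPM (30.2 to 34.7). The lowest and highest class thus lay on the same ends in both libraries. Between them, cells with T alone (14.1 and 22.9 CPM) and Eomes alone (16.7 and 22.7 CPM) had overlapping intervals in each library. The class with all 3 genes stood at 17.8 CPM (12.8 to 24.2) and 23.7 CPM (15.5 to 34.7). Its interval overlapped that of the T and Eomes class in each library, so which of these classes is highest is not resolved. Intervals also overlapped, in each library, between the Eomes and Irx3 class (12.5 and 17.7 CPM) and the class with none of the 3.

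The difference between the libraries was also seen inside the classes. Prickle1 had a value above 0 in all 7 classes, with log2 ratios from 0.42 to 0.70, and passed the limit in 4. Vangl1 did so in all 7, from 0.31 to 0.96, and passed in 5. Ptk7 was lower in all 7, from -0.58 to -0.39, and passed in 7. In the cells with none of the 3 genes, Ptk7 stood at 113.0 and 80.7 CPM, a log2 ratio of -0.49 (-0.57 to -0.41). Celsr2 lay above 0 in 7 of 7 classes but passed in 1. Of the remaining members, Prickle2, Vangl2 and Celsr1 each passed in 1 class as lower, Dvl2 in 1 as higher, and Dvl1 and Scrib in none. The share of all genes past the limit inside a class was not computed, so these counts are a description only. The classes are cells of the same 2 libraries, so passing in several of them is not a repeat.

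**Figure D4:**
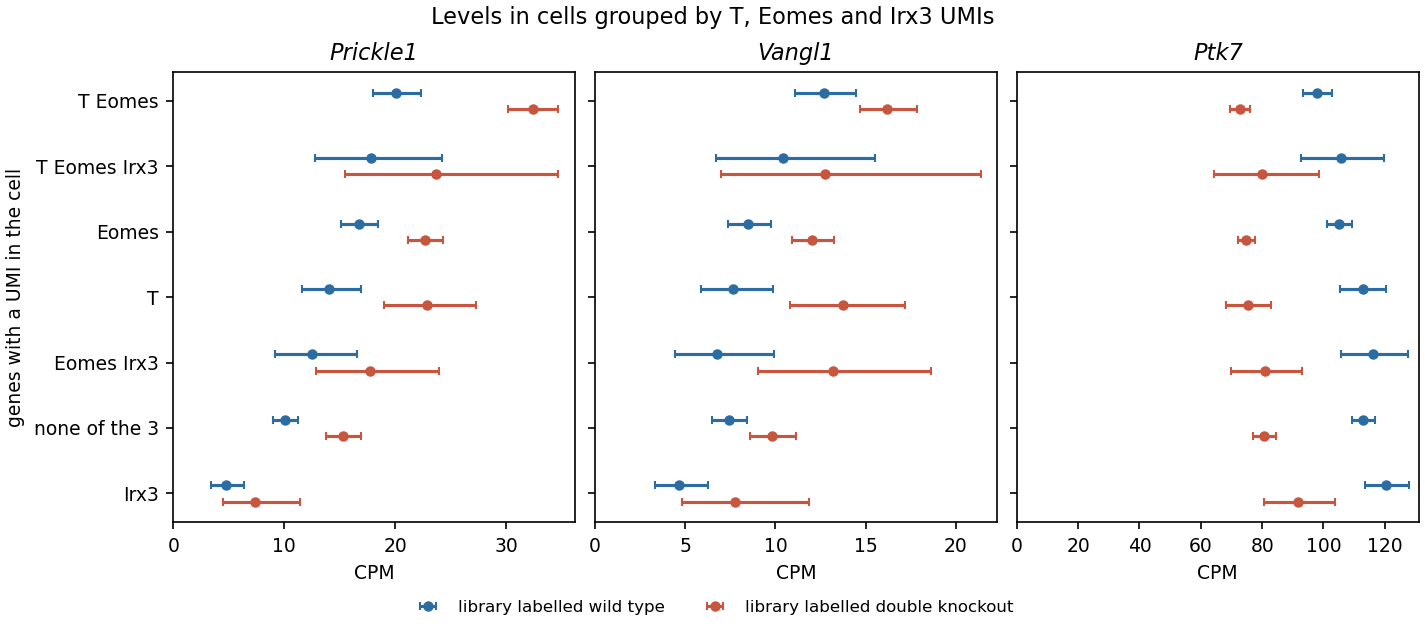
CPM of Prickle1, Vangl1 and Ptk7 in the 7 classes of cells made by T, Eomes and Irx3 UMIs, in the library labelled wild type (blue) and the library labelled double knockout (red), with 95% counting intervals. Prickle1 runs from 4.74 and 7.38 CPM with Irx3 alone to 20.1 and 32.4 CPM with T and Eomes, and in every class the red Ptk7 point lies left of the blue one.

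Over the 14 class levels (7 classes in 2 libraries), log2 CPM of Prickle1 and Vangl1 had a Pearson r of 0.92. Ptk7 had an r of -0.84 with Vangl1 and of -0.69 with Prickle1. The 14 points share 2 libraries, so these values hold the library difference as well as the classes. Of 7333 genes compared with Prickle1 in this way, the 3 most alike were Fgf5, a primed epiblast gene, at 0.98, Trh, the gene of thyrotropin-releasing hormone, at 0.97, and Hsp90aa1, a heat shock chaperone, at 0.97.

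The wider pathway was read from a list of 64 further genes, of which 63 were counted and 58 reached a mean CPM of 1. Between the libraries 3 of the 58 were higher (5.17%, against 4.62% of all genes) and 5 lower (8.62%, against 7.14%), which is near the share of all genes, and the median log2 ratio was -0.08. The genes named next are therefore values of single genes and not a result of the list. Wnt5b, a ligand of noncanonical Wnt signalling, stood at 5.01 and 8.38 CPM (log2 ratio 0.74, 0.58 to 0.91). Dact1, a regulator that binds Dishevelled, stood at 4.16 and 6.51 CPM (0.65, 0.47 to 0.83), and Fuz, a polarity effector needed for cilia, at 3.12 and 3.90 CPM (0.32, 0.10 to 0.55). The 5 lower in the library labelled double knockout included 3 of 12 receptors and coreceptors. Ror2, a Wnt5a receptor, stood at 24.1 and 18.8 CPM (-0.36, -0.45 to -0.27), Fzd7 at 20.8 and 16.9 CPM (-0.30, -0.39 to -0.20), and Fzd8 at 2.44 and 1.93 CPM (-0.34, -0.63 to -0.06). Prkci, an apical polarity kinase (-0.30), and Invs, the gene of inversin (-0.30), were the others. Dvl3, the third Dishevelled, stood at 18.5 and 18.6 CPM (0.01, -0.09 to 0.10). Wnt5b, Dact1, Fuz, Fzd8 and Invs have a mean CPM under 10 and were named after their values were seen, as were the Wnt genes and Fermt1 in the next comparison.

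Among the ligands, Wnt11 and Wnt5a differed between cell classes. Wnt11 stood at 2.79 against 1.14 CPM in T positive and negative cells of the library labelled wild type (log2 ratio 1.29, 0.82 to 1.76) and at 3.11 against 1.41 CPM in the other (1.14, 0.72 to 1.56). Wnt5a went the other way, at 2.00 against 3.29 CPM (-0.71, -1.16 to -0.29) and 2.25 against 3.04 CPM (-0.43, -0.84 to -0.04). In Irx3 positive cells the pair was reversed, with Wnt5a at 1.11 (0.72 to 1.48) and 0.85 (0.24 to 1.37) and Wnt11 at -1.15 (-2.14 to -0.38) and -1.07 (-2.64 to -0.03) on the log2 scale. In T positive cells 1 of the 58 was higher (1.72%, against 1.02% of all genes) and 3 lower (5.17%, against 1.61%), the latter Wnt5a, the heparan sulphate coreceptor Sdc4 and the integrin adaptor Fermt1. In Eomes positive cells Wnt5b, Wnt11 and Dact1 were higher (5.17%, against 1.65%) and Wnt5a and Sdc4 lower (3.45%, against 2.72%). In Irx3 positive cells Wnt5a and the receptors Fzd2 and Fzd7 were higher (5.17%, against 1.65%), and Wnt11 and the apical gene Crb3 lower (3.45%, against 1.17%). These counts are of 1 to 3 genes each. Fzd2 stood at 145.7 against 103.1 CPM (0.50, 0.43 to 0.56) and 135.0 against 98.1 CPM (0.46, 0.36 to 0.56).

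Some cells of these libraries hold a low share of UMIs from chromosome 6 or 11, set at up to 0.8 times the median cell with the members left out of the share. On chromosome 6 these were 1836 cells (21.1%) and 1925 cells (18.2%), and on chromosome 11 1538 cells (17.7%) and 616 cells (5.82%). Dvl2 lies on chromosome 11 and Prickle2 on chromosome 6, and the other 8 members lie elsewhere. Dvl2 was lower in cells low on chromosome 11, at 31.8 against 44.6 CPM (log2 ratio -0.49, -0.63 to -0.35) and at 27.1 against 42.9 CPM (-0.65, -0.92 to -0.41). Prickle2 in cells low on chromosome 6 stood at 1.59 against 2.18 CPM and 1.18 against 1.86 CPM, with 30 and 20 UMIs, and both intervals held no change (-1.07 to 0.11 and -1.41 to 0.02). Both genes had lower values where their chromosome's share was low, for Dvl2 beyond counting error. These cells were chosen for a low share of that chromosome, so a lower level of a typical gene on it is built into the choice. Other genes of the 2 chromosomes were not compared singly, so the values are not particular to Dvl2 or Prickle2. Dvl2 was also lower in cells low on chromosome 6, at log2 ratios of -0.38 (-0.50 to -0.26) and -0.14 (-0.27 to -0.02). In cells low on 11 only, against cells low on neither, Dvl2 stood at -0.38 (-0.68 to -0.12) and -0.61 (-0.95 to -0.29) on the log2 scale. In cells low on 6 only it stood at -0.18 (-0.36 to -0.01) and -0.10 (-0.23 to 0.03), where the second interval includes 0.

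Celsr1, on chromosome 15, was higher in cells low on chromosome 6, at 10.7 against 6.66 CPM (log2 ratio 0.69, 0.44 to 0.92) and at 8.53 against 6.22 CPM (0.46, 0.18 to 0.72). In cells low on chromosome 11 it stood at 11.4 against 6.73 CPM (0.77, 0.51 to 1.02) and at 8.91 against 6.51 CPM (0.47, -0.03 to 0.90), where the second interval includes 0. The 2 sets of cells overlapped. In the library labelled wild type 1209 cells were low on both, which is 65.8% of those low on 6 and 78.6% of those low on 11, against 260 cells, or 13.5% and 42.2%, in the library labelled double knockout. In a comparison added after seeing the data, each set was taken against cells low on neither. Celsr1 then stood at 0.49 (0.08 to 0.85) and 0.44 (0.14 to 0.72) in cells low on 6 only, at 0.69 (0.11 to 1.18) and 0.43 (-0.27 to 1.01) in cells low on 11 only, and at 0.86 (0.57 to 1.13) and 0.73 (-0.02 to 1.34) in cells low on both.

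Vangl1, on chromosome 3, was also higher in cells low on chromosome 11, at 0.31 (0.05 to 0.57) and 0.82 (0.51 to 1.11) on the log2 scale, and stood at 0.34 (0.10 to 0.57) and 0.16 (-0.06 to 0.36) in cells low on chromosome 6. Against cells low on neither, it stood at 0.43 (0.14 to 0.70) and 1.06 (0.61 to 1.46) in cells low on both, at -0.07 (-0.75 to 0.49) and 0.65 (0.21 to 1.03) in cells low on 11 only, and at 0.18 (-0.22 to 0.54) and 0.02 (-0.22 to 0.24) in cells low on 6 only. T positive cells were low on chromosome 11 in 25.3% and 8.29% of cases, against 15.0% and 4.79% of T negative cells. For chromosome 6 these shares were 28.0% and 17.4%, against 18.6% and 18.5%, so there the share was higher in T positive cells of the library labelled wild type and not of the other. Without the cells low on either chromosome, Vangl1 in T positive cells stood at 0.62 (0.37 to 0.86) and 0.44 (0.25 to 0.63), and the difference between the libraries was 0.77 (0.66 to 0.88) for Prickle1, 0.58 (0.44 to 0.73) for Vangl1 and -0.51 (-0.56 to -0.46) for Ptk7.

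**Figure D5:**
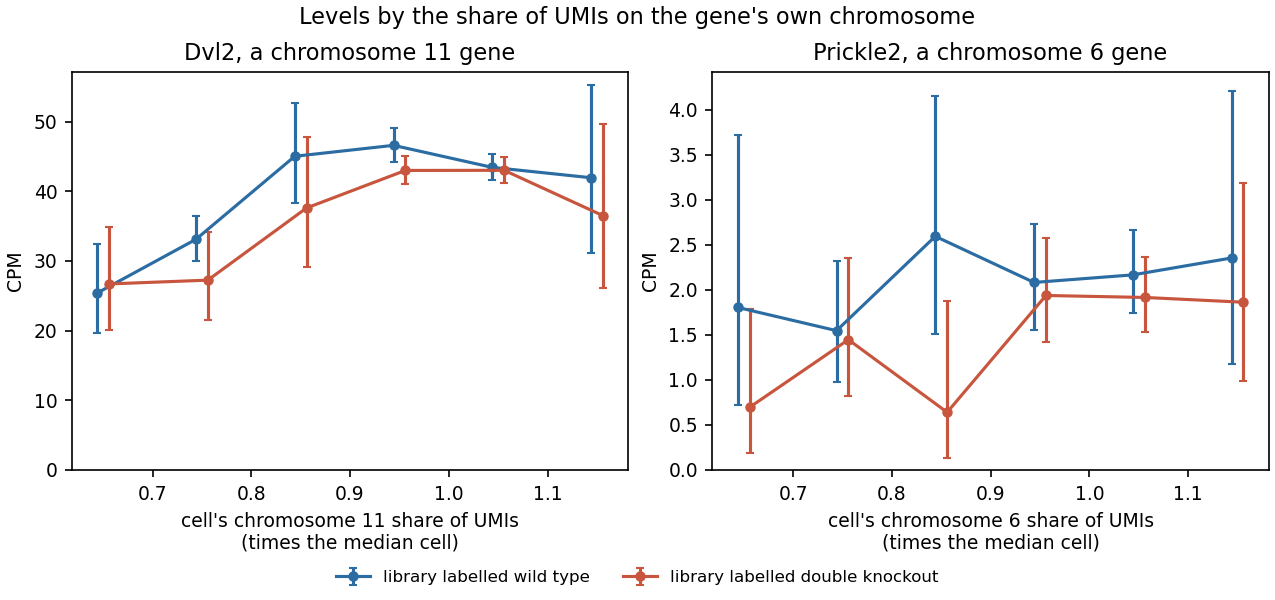
CPM of Dvl2 by the cell's chromosome 11 share and of Prickle2 by its chromosome 6 share, each relative to the median cell, in bins of 0.1 for both libraries with 95% counting intervals. Dvl2 stands at 25.4 and 26.7 CPM in cells from 0.6 to 0.7 times the median and at 46.6 and 43.0 CPM from 0.9 to 1.0, while the wide intervals of Prickle2 overlap throughout. The bins are set by the share of the gene's own chromosome, so lower levels in the low bins are built in for a typical gene on it.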

How the data were processed

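Single-cell 3′ libraries (10x Genomics chemistry, per the labels' protocols) were analysed from the deposited UMI counts per gene and barcode, which are not normalized. The labels name Cell Ranger 8.0.1, and the submitters' processing notes name STARsolo, STAR 2.7.9a, Seurat 5.1.0 and mm10. Which of these wrote the counts is not given in the sources used here. Samples were grouped by the labelled genotype, with 1 library each, so no test was run. The members and gene lists were chosen with earlier results of these data known.

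Counts of kept cells were summed and scaled to the total as CPM. Ratios carry a pseudocount of 0.5, levels an exact Poisson interval, their ratios an interval conditional on the sum of both counts, and shares the Clopper-Pearson interval, each at 95%. The ratio and call rule were tested on simulated Poisson counts, which hold no variation between cells or between cultures. Doublets were not removed, except in an alternative that removed 606 and 897 cells. Named genes are the members, Sp5, Sp8, T, Eomes, Irx3, up to 2 pathway genes per role and comparison whose mean CPM reached 10, and the 3 most like Prickle1. Python 3.11.15, numpy 2.4.6, scipy 1.17.1, R 4.3.3 and edgeR 4.0.16 (TMM factors only) were used. Alternatives varied the cell filters, scaling, pseudocount, fold and definition of positive cells.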

Additional observations from a re-analysis of the deposited data

How the results depend on the processing

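With 1 library per genotype, depth limits single genes: Prickle2 has 201 and 170 UMIs, and Irx3 positive cells of the library labelled double knockout number 657. Prickle1, Vangl1 and Ptk7 kept their direction between the libraries under each alternative run. The Prickle1 log2 ratio was 0.58 with equal class shares. TMM scaling moved the median log2 ratio of all genes whose mean CPM reached 10 from -0.02 to 0.01. Shares of all genes past the same limit stand in brackets. Between the libraries 1 member was higher (0.516%) and 0 lower (0.879%) with a fold of 1.5, and 3, Ptk7, Vangl2 and Celsr1, were lower with a fold of 1.1 (18.9%). For T, 0 were higher (0.355%) and 1, Celsr2, was lower (0.266%) on few UMIs in thinned cells. In cells positive for 1 gene only (0.605%) or with a fold of 1.5 (0.169%), 1 was higher for T. For Eomes, 1 was higher in thinned cells (0.435%), in cells positive for 1 gene only (1.25%) and with a fold of 1.5 (0.298%), and 1, Celsr2, was lower with a fold of 1.1 (4.60%). For Irx3, 2, Prickle1 and Vangl1, were lower with 5 depth strata (1.35%). Thinning turned the Irx3 log2 ratio in the library labelled double knockout to -0.13 for Fzd3 and to 0.28 for Llgl2, on few UMIs. Apart from thinning, and from the smaller sets of cells and stricter folds by construction, the cause was not tested. No paired analysis was possible because each group holds 1 library.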

Other observations

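Free RNA was read from barcodes of 10 to 100 UMIs, of which there were 101446 with 3958240 UMIs and 89160 with 2541601 UMIs. In these barcodes Vangl2 stood at 26.5 and 28.7 CPM, against 47.7 and 42.2 CPM in cells. Dvl2 stood at 34.1 and 37.4 CPM, against 42.7 and 42.1 CPM in cells, and Scrib at 20.5 and 22.4 CPM, against 25.8 and 26.6 CPM. Vangl1 rested on 20 and 10 UMIs there, at 5.05 and 3.93 CPM.

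Across the 14 class levels, the genes most like Vangl1 were Khdrbs1 (r = 0.96), Epha1, an ephrin receptor gene (0.95), and Cbr1 (0.94). These names lie outside the rule for named genes and were taken after the values were seen.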
